A study of Mus musculus with 32 samples.

Results

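The 37 genes described here move fatty acids into the muscle fibre, carry them into the mitochondrion, oxidise them, or keep them as triglyceride in lipid droplets. They were taken from a fixed list of symbols, each matched through its Ensembl identifier to a row of a count table of 55487 genes, and all 37 passed the filter on low counts in every fit. The table covers 32 polyA RNA libraries from 16 mice, a gastrocnemius medialis (a fast-type muscle) and a soleus (a slow-type muscle) from the left leg of each. In the mice labelled double KO both Acvr1b and Tgfbr1, type I receptors of the TGF-β family, were knocked out in myofibres; in Acvr1b KO and Tgfbr1 KO mice only the named receptor was; control mice were the reference. There were 4 mice of each genotype, so 4 libraries in each of the 8 groups of muscle and genotype. Knockout was induced by tamoxifen at 6 weeks of age and muscles were taken 3 months later. The promoter that drove the recombinase, the sex of the mice and whether control mice received tamoxifen are not given in the sources used here. The animal numbers of all 4 double KO mice lie above those of the other 12 mice, so a difference in cohort cannot be told apart from the double KO. Every tissue piece was a whole muscle, so fewer cells of a type and less RNA per cell cannot be told apart.

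Fatty acids reach muscle bound to albumin or are freed from circulating triglyceride by lipoprotein lipase on the capillary wall, and enter the fibre with the help of CD36, fatty acid transport proteins and the cytosolic carrier FABP3. Acyl-CoA synthetases activate them, the carnitine palmitoyltransferases carry them across the mitochondrial membranes, and the β-oxidation cycle shortens them while passing electrons to the electron-transferring flavoprotein. What is not burned is esterified to triglyceride and stored in droplets coated by perilipins. Slow, oxidative fibres rely on this route more than fast, glycolytic ones.

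Library totals ran from 16535498 to 54456977 counts. Acvr1b had 23.4, 17, 14 and 15.5 CPM (counts scaled to a common TMM-adjusted library size) in the double KO gastrocnemius and 23.7 to 27.2 CPM in Acvr1b KO gastrocnemius, against 94.2, 117, 103 and 112 CPM in control gastrocnemius. Whole-gene counts of Tgfbr1 did not show a loss, at 38.4 to 56.3 CPM in the double KO gastrocnemius against 22.9 to 37.5 CPM in control gastrocnemius, so its deletion was not checked here and "double KO" and "Tgfbr1 KO" rest on the labels. The slow myosin Myh7 separated the muscles, with 6632 to 9309 CPM in control soleus and 634 to 1037 CPM in control gastrocnemius. A few libraries stood apart. The soleus of double KO mouse 1 lay at the end of the leading principal component of its muscle, and in the gastrocnemius of control mouse 1 mitochondrially encoded genes took 25.99% of counts, against 10.4 to 13.9% in the other controls. Of the 37 genes, 32 lay below the control mean in that control library.

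**Figure D1:**
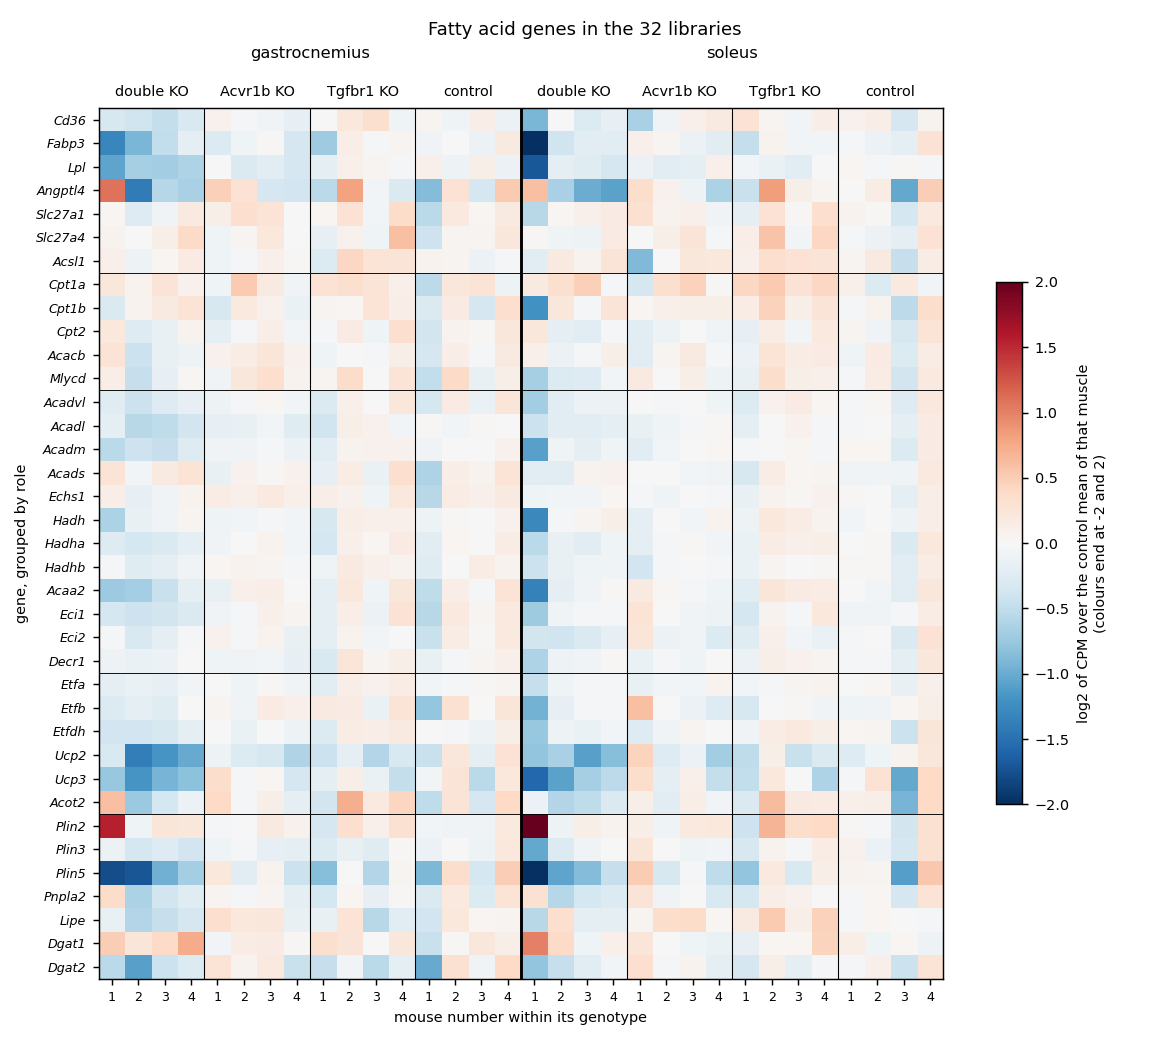
Each row is a gene, grouped from top to bottom as uptake, carnitine shuttle, β-oxidation, electron transfer with uncoupling, and storage; each column is a library; colour gives log2 of CPM over the mean of the 4 control libraries of that muscle. Blue fills most of the double KO columns of gastrocnemius, where 23 to 33 of the 37 genes lay below the control mean. In gastrocnemius of the other genotypes this count was 4 to 32 (control), 9 to 27 (Acvr1b KO) and 3 to 30 (Tgfbr1 KO). The soleus of double KO mouse 1 holds both the lowest value (-2.43) and the highest (3.88).

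Levels between genes were compared per length, as TPM (counts per length of exon, scaled to the same sum in every library). The length is that of all annotated exons of a gene. Whether the transcripts made in muscle span all of it was not checked, so ranks between genes depend on this length. In control gastrocnemius the most abundant member was Fabp3, the fatty acid carrier of muscle cytosol, at 836 ± 244 TPM (mean ± SD, n = 4). Next came Ucp3, an uncoupling protein of muscle mitochondria, at 369 ± 140.0 TPM, then Acadl and Acadvl, the long-chain and very-long-chain acyl-CoA dehydrogenases, at 255 ± 59 and 215 ± 80.1 TPM. Fabp3 exceeded Ucp3 by more than the SD of either, whereas Ucp3 and Acadl, and Acadl and Acadvl, differed by less than the SD of the higher one. In control soleus Fabp3 again led with 2868 ± 593 TPM, followed by Acadl at 608 ± 89.2 and Lpl, lipoprotein lipase, at 482 ± 28.2 TPM, while Ucp3 ranked 11 at 207 ± 82.1 TPM. The order of Acadl and Lpl rests on their lengths of 2005 and 10478 bases. Not divided by length, Lpl had a mean of 2495 CPM there and Acadl 601 CPM. The liver-type transferase Cpt1a was the lowest of the 37 in both control muscles, at 2.25 ± 0.288 TPM in soleus and 1.99 ± 0.784 TPM in gastrocnemius. The levels of Cpt1b, the muscle-type transferase, and of Etfb, a subunit of the electron-transferring flavoprotein, are uncertain for a further reason. Same-strand exons of other annotated genes cover 81.4% of the exon bases of Cpt1b and 58.2% of those of Etfb, and the counting command in the file header does not turn on assignment of reads to overlapping genes.

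In the double KO gastrocnemius 28 of the 37 fatty acid genes had a negative log2 fold change over control gastrocnemius. By edgeR's quasi-likelihood test with Benjamini-Hochberg adjustment over 17536 genes, 12 of 37 members passed the threshold of 0.05, against 20.9% of all genes. Of these, 11 fell (29.7% of members, against 9.59% of all genes) and 1 rose (2.7% of members, against 11.4% of all genes). The median log2 fold change of the members was -0.15, against 0.00 over all genes. That median was -0.27 without double KO 1, -0.25 without control 1 and -0.10 without control 4. Libraries of the groups did not overlap for 8 members (21.3% of all genes). The falls were spread over uptake (Lpl, Fabp3, Cd36), β-oxidation (Acaa2, Acadm, Acadl), electron transfer and uncoupling (Ucp3, Ucp2, Etfdh) and droplet coats (Plin5, Plin3). The single rise was Dgat1, a triglyceride-forming enzyme. Calls for Lpl, Cd36, Acadm, Acadl, Ucp2, Ucp3 and Plin5 were kept under all 15 alternatives run, while those for Fabp3, Acaa2, Etfdh, Plin3 and Dgat1 were lost under 3 to 8 of them. Leaving out control 1, the library with the high mitochondrial share, raised the number called to 19, against 21.8% of all genes; the 7 added were Acadvl, Hadha, Eci1, Eci2, Etfb, Lipe and Dgat2. Without all 3 gastrocnemius libraries in doubt (double KO 1, Tgfbr1 KO 1 and control 1) it was 22, all lower, against 26.2% of all genes. The median of the members was then -0.32. Control 1 lay below the control mean for 32 of the 37 genes, so its removal by itself raises most control means. The libraries in doubt were also chosen after the data were seen. Calls against control gained without them, here and below, are therefore no separate support for a fall.

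**Figure D2:**
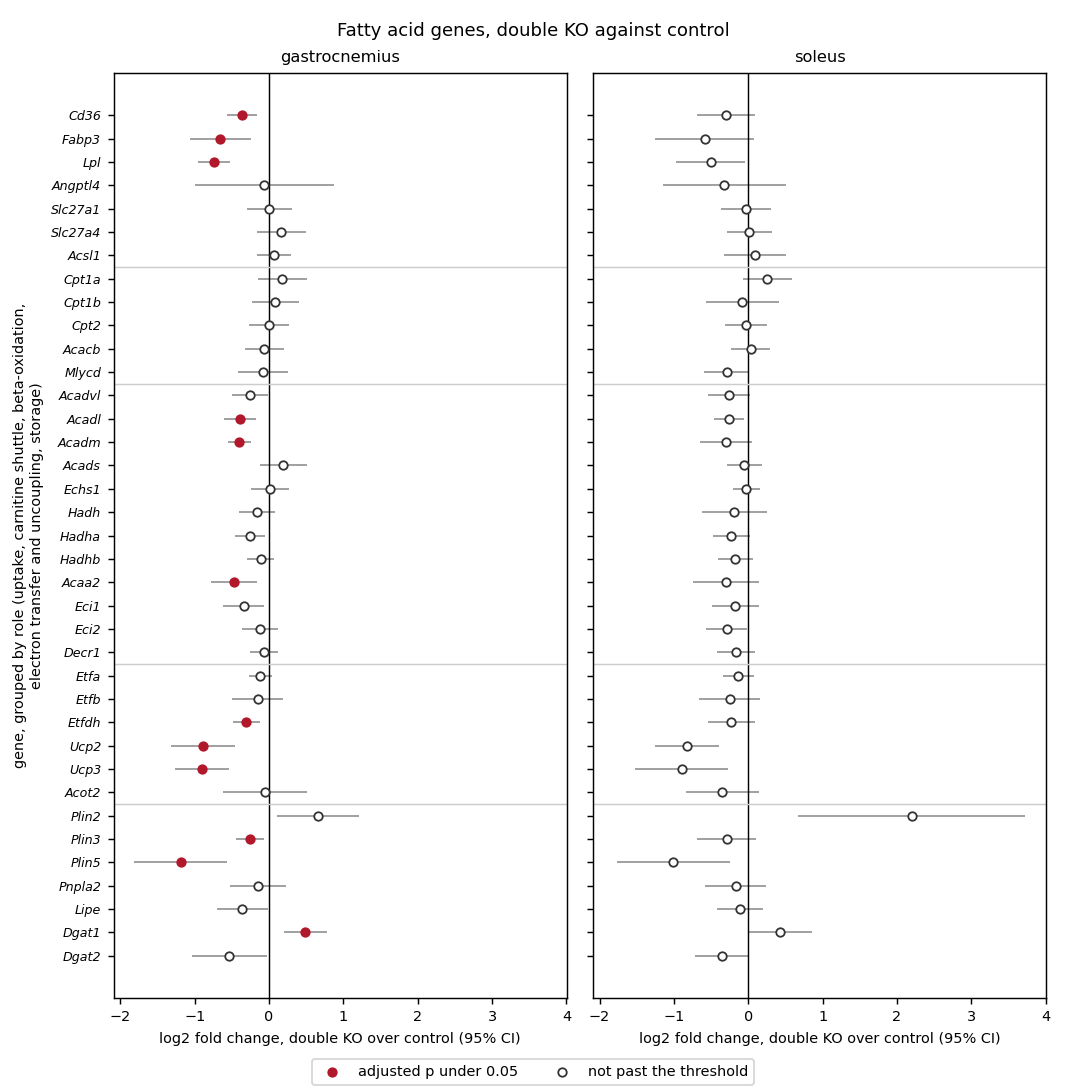
Points are log2 fold changes of double KO over control with 95% intervals, gastrocnemius on the left and soleus on the right, and filled points passed the adjusted threshold of 0.05. The 12 filled points lie in gastrocnemius, 11 of them left of 0, and the widest interval is that of Plin2 in soleus (0.67 to 3.73).

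Promoters were searched because PPAR and estrogen-related receptors, known regulators of fatty acid oxidation genes, bind DNA elements built on the hexamer AGGTCA. RefSeq promoter windows (GRCm38.p6) were found for 30 of the 37 members. No member window held, on either strand, the direct repeat of AGGTCA with any base between the copies, its extended form (AGGNCA, an A, then AGGTCA) or TCAAGGTCA, against 0.529% of all 27025 genes with a window. The hexamer AGGTCA alone, which lies inside those motifs and was searched after they gave no match, occurred on either strand of the 250 bases before the start in 8 of 30 members (26.7%), against 15.8% of all genes. It occurred in 4 of the 9 members with a window that fell in the double KO gastrocnemius (Ucp3, Plin5, Acadm and Cd36). Fabp3, Acadl, Etfdh, Plin3 and Ucp2 fell without a match. Of the 21 that did not pass, 4 had a match (Acadvl, Cpt1a, Echs1 and Plin2), and whether the hexamer goes with the falls was not tested. The sequences that follow are those of the members that fell with a match and, of those that fell without, Ucp2 alone. They read 5′ to 3′ along the gene and end just before an annotated start. Capitals mark AGGTCA or its reverse complement. Ucp3 (chr7:100472741-100472990, + strand) had 2 matches, 149 and 44 bases before the start. Ucp2 (chr7:100493108-100493357, + strand), its neighbour on chromosome 7, had none and fell as well. The window of Plin5 (chr17:56117549-56117798, - strand), of Acadm (chr3:153944644-153944893, - strand) and of Cd36 (chr5:17835897-17836146, - strand) had 1 match each. For Plin5 this is the window of the upstream of 2 annotated starts. The Cd36 window lies within the span of the gene in the count table (chr5:17781690-17888801), so it precedes an internal start. A match is a string of letters and was not tested as a binding site.
Ucp3: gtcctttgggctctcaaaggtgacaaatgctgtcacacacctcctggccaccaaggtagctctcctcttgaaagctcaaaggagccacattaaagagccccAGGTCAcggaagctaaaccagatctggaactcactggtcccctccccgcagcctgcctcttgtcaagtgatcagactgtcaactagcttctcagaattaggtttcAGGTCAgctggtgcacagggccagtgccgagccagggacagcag
Ucp2: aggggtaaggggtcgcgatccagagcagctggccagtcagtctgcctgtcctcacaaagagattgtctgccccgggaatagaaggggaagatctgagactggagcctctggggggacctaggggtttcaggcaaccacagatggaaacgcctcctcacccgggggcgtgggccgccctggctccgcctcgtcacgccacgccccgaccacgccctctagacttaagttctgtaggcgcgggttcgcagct
Plin5: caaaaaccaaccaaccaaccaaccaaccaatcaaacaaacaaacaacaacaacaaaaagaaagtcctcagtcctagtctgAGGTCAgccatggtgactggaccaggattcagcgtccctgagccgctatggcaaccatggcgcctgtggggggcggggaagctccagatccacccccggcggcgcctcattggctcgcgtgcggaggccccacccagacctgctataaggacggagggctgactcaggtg
Acadm: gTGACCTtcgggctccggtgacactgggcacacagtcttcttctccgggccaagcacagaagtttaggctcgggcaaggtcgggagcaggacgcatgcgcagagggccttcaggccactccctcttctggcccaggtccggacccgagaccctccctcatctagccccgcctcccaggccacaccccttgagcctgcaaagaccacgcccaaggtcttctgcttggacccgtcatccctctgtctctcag
Cd36: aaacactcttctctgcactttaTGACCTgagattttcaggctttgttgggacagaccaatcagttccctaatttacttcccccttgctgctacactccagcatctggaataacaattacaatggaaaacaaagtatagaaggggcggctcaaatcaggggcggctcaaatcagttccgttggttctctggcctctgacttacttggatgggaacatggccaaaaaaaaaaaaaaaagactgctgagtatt

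Of the 7 uptake genes 3 fell, against 9.59% of all genes. Lpl (ENSMUSG00000015568, chr8:68880491-68907448, + strand of GRCm38.p6), the lipase that frees fatty acids from lipoproteins, had 377, 492, 482 and 509 CPM in the double KO gastrocnemius, against 837, 730.0, 844 and 718 CPM in control gastrocnemius. Its groups did not overlap, and double KO 1 was the lowest library of all. The log2 fold change was -0.74 ± 0.10, adjusted p = 9.14e-05 (± SE, n = 4 each), the smallest adjusted p among the 37. Every fold change below is given in the same way with n = 4 each, save those from fits without some libraries. Cd36, the fatty acid translocase, had 167, 158, 149 and 168 CPM in the double KO gastrocnemius and 215, 197, 229 and 192 CPM in control gastrocnemius, without overlap (-0.36 ± 0.097, adjusted p = 0.0131). Fabp3 had 152, 201, 269.5 and 328 CPM in the double KO gastrocnemius and 358, 378, 347 and 428 CPM in control gastrocnemius. The double KO libraries spread widely, from mouse 1 at the bottom, yet all stayed below the controls (-0.66 ± 0.19, adjusted p = 0.023); without double KO 1 it no longer passed (-0.50, adjusted p = 0.0536). The transport proteins Slc27a1 (0.00) and Slc27a4 (0.17) and the acyl-CoA synthetase Acsl1 (0.07, 95% interval -0.16 to 0.30) did not pass. Angptl4, a secreted inhibitor of lipoprotein lipase, had 10.7, 1.91, 3.38 and 3.2 CPM in the double KO gastrocnemius, against 2.74 to 7.25 CPM in control gastrocnemius. Double KO 1 alone was above the controls, and the fold change was -0.06 ± 0.45. Without the 3 libraries in doubt it was -1.03 (adjusted p = 0.0373).

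None of the 5 genes of the carnitine shuttle and its control passed, against 20.9% of all genes. A list of 5 is too short to set this apart from that share. Cpt1b, the entry step of muscle mitochondria, had 7.23, 9.26, 9.96 and 10.7 CPM in the double KO gastrocnemius and 7.24, 9.93, 7.03 and 11.2 CPM in control gastrocnemius, fully overlapping (0.08, 95% interval -0.24 to 0.40). Cpt2, the inner-membrane transferase, was at -0.01 (-0.28 to 0.26) and Cpt1a at 0.18 (-0.15 to 0.51). Acacb makes malonyl-CoA, the inhibitor of the shuttle, and Mlycd removes it; their fold changes were -0.06 and -0.08. Acacb passed without the 3 libraries in doubt (-0.31, adjusted p = 0.0167). The intervals of these 5 genes allowed changes between -0.42 and 0.51.

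Of the 12 β-oxidation genes 3 fell (9.59% of all genes did), and 10 had negative fold changes. Acadm (ENSMUSG00000062908, chr3:153922357-153944632, - strand of GRCm38.p6), the medium-chain acyl-CoA dehydrogenase, had 215, 232, 227 and 259.6 CPM in the double KO gastrocnemius, against 296, 311, 309 and 329.5 CPM in control gastrocnemius (-0.40 ± 0.073, adjusted p = 0.000948). Acadl, the long-chain enzyme, had 248, 192, 199.5 and 219 CPM in the double KO gastrocnemius and 289, 272, 288 and 286 CPM in control gastrocnemius (-0.39 ± 0.10, adjusted p = 0.0131). For neither gene did the groups overlap. Acaa2, the thiolase that ends the cycle, had 80.05, 82.9, 97.6 and 118 CPM in the double KO gastrocnemius and 93.1, 145, 131 and 161 CPM in control gastrocnemius; the low control 1 lay among the double KO libraries (-0.47 ± 0.15, adjusted p = 0.0303). The trifunctional protein subunits Hadha (-0.25 ± 0.094, adjusted p = 0.0663) and Hadhb (-0.12 ± 0.085, adjusted p = 0.366) did not pass, nor did Acadvl (-0.26 ± 0.12, adjusted p = 0.129). Without the 3 libraries in doubt Hadha (-0.33, adjusted p = 0.00242), Hadhb (-0.23, adjusted p = 0.0193) and Acadvl (-0.37, adjusted p = 0.0105) did. The isomerase Eci1, for unsaturated chains, likewise passed without them (-0.34 ± 0.13, adjusted p = 0.071 with all libraries; -0.50, adjusted p = 0.00122 without them). The remaining genes of the cycle did not pass. Hadh, the short-chain hydroxyacyl-CoA dehydrogenase, was at -0.17, the isomerase Eci2 at -0.12 (-0.29, adjusted p = 0.0189 without the 3 libraries in doubt) and the dienoyl-CoA reductase Decr1 at -0.07. The short-chain dehydrogenase Acads (0.19) and the hydratase Echs1 (0.01) had fold changes above 0.

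All 6 genes of electron transfer, uncoupling and acyl-CoA hydrolysis had negative fold changes, and 3 fell (9.59% of all genes did). Ucp3 (ENSMUSG00000032942, chr7:100472990-100486432, + strand of GRCm38.p6) had 373, 279.8, 333 and 358 CPM in the double KO gastrocnemius, against 610.2, 754, 437 and 734 CPM in control gastrocnemius, without overlap (-0.90 ± 0.17, adjusted p = 0.00145). Ucp2, its more widely expressed relative, had 16.6, 7.9, 9.03 and 10.2 CPM in the double KO gastrocnemius and 15.1, 23.9, 17.9 and 25.1 CPM in control gastrocnemius. Double KO 1 overlapped the controls and the other 3 double KO libraries lay below all of them (-0.89 ± 0.20, adjusted p = 0.00528). Etfdh, which hands the electrons of β-oxidation to ubiquinone, had 123, 124, 129 and 141 CPM in the double KO gastrocnemius and 162, 158, 151 and 174 CPM in control gastrocnemius (-0.30 ± 0.087, adjusted p = 0.0197). Its groups did not overlap. The flavoprotein subunits Etfa (-0.12) and Etfb (-0.15) did not pass, though Etfb did without the 3 libraries in doubt (-0.32, adjusted p = 0.0494). Acot2, a mitochondrial acyl-CoA thioesterase, had 33.5, 13.2, 17.4 and 20.4 CPM in the double KO gastrocnemius against 15.6 to 29.1 CPM in control gastrocnemius, and its fold change of -0.05 had an interval of -0.62 to 0.52.

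Storage genes moved in both directions. Plin5 (ENSMUSG00000011305, chr17:56111601-56117596, - strand of GRCm38.p6), the droplet coat protein that tethers droplets to mitochondria in oxidative tissue, had 10.8, 11.2, 18.9 and 23 CPM in the double KO gastrocnemius, against 19.8, 46.9, 28.6 and 51.6 CPM in control gastrocnemius. The controls spread widely and control 1 lay within the double KO range, while the fold change was the largest fall among the 37 (-1.19 ± 0.30, adjusted p = 0.009). Plin3, a coat protein of small droplets, had 37.4, 32, 34 and 31.2 CPM in the double KO gastrocnemius and 37.4, 40.4, 37.8 and 47.3 CPM in control gastrocnemius (-0.26 ± 0.09, adjusted p = 0.0483), a call lost under 8 of 15 alternatives; double KO 1 reached the lowest controls. Dgat1 had 9.22, 7.73, 8.53 and 10.9 CPM in the double KO gastrocnemius and 4.82, 6.69, 7.65 and 7.1 CPM in control gastrocnemius (0.49 ± 0.14, adjusted p = 0.0165); the groups did not overlap, and Dgat1 did not pass once the 3 doubted libraries were removed (0.35, adjusted p = 0.0549). Dgat2, the other enzyme of this step, had a negative fold change that did not pass (-0.54 ± 0.24, adjusted p = 0.125), and passed without those libraries (-0.77, adjusted p = 0.0175). The lipases Pnpla2 (-0.15 ± 0.18, adjusted p = 0.599) and Lipe (-0.36 ± 0.16, adjusted p = 0.133) likewise passed when the same libraries were left out (-0.48, adjusted p = 0.0168 for Pnpla2; -0.56, adjusted p = 0.0298 for Lipe). Plin2, a coat protein found on droplets of many cell types, had 71.7, 23, 28.9 and 28.4 CPM in the double KO gastrocnemius against 23.3, 23.1, 23.3 and 27.8 CPM in control gastrocnemius. Only double KO 1 stood clear of the other libraries (0.66 ± 0.26, adjusted p = 0.0857).

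Loss of a single receptor moved no member past the threshold. So few of all genes passed that 0 of 37 cannot be set apart from the share of all genes. In gastrocnemius 0 of 37 passed for Acvr1b KO against control (0.0285% of all genes did) and 0 for Tgfbr1 KO against control (0.171%), by edgeR, with 0 at an unadjusted p under 0.05 in either; DESeq2 also called 0. In soleus 0 passed for Acvr1b KO (0.022% of all genes) and 0 for Tgfbr1 KO (0.0496%), with 0 and 2 at an unadjusted p under 0.05 and 0 by DESeq2. The 2 were Lipe (0.33) and Cpt1a (0.41) in Tgfbr1 KO soleus. Counts at an unadjusted p under 0.05, here and below, have no share of all genes at that cut beside them. The percentages given are for the adjusted threshold, so such counts are not read as a result about the members. Median fold changes in gastrocnemius were 0.01 for Acvr1b KO (all genes 0.00) and 0.04 for Tgfbr1 KO (all genes 0.00). The most negative fold change in both was that of Ucp2, at -0.30 in Acvr1b KO (95% interval -0.73 to 0.12) and -0.36 in Tgfbr1 KO (-0.79 to 0.07).

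**Figure D3:**
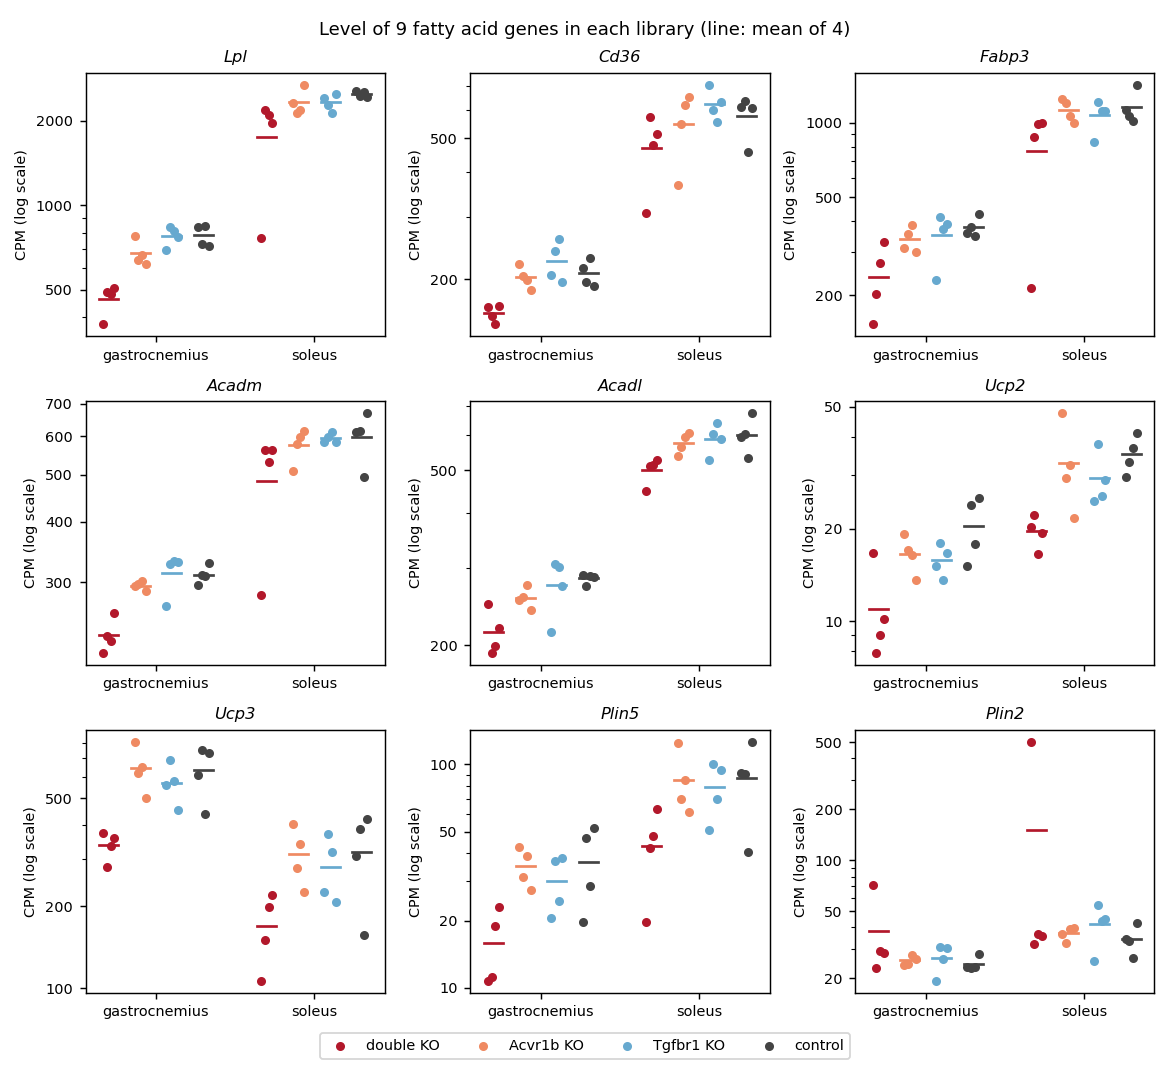
CPM on a log axis in each library (points) with the mean of 4 (line), by genotype within each muscle. In gastrocnemius the 4 double KO libraries of Lpl, Acadm and Ucp3 lie below every library of the other genotypes; in soleus Plin2 has a single point at 503 CPM.

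The double KO also differed from each single KO in gastrocnemius. Against Acvr1b KO, 7 of 37 members fell and 0 rose (18.9%; 16.3% of all genes passed, 7.06% lower and 9.2% higher). Those were Cd36, Lpl, Acadm, Acaa2, Ucp3, Plin5 and Lipe. Against Tgfbr1 KO, 7 fell and 0 rose (18.9%; 12.9% of all genes passed, 5.42% lower and 7.44% higher), namely Cd36, Lpl, Acadl, Acadm, Acaa2, Etfdh and Ucp3. These comparisons share the double KO libraries with that against control, so the 5 genes that passed in all 3 (Lpl, Cd36, Acadm, Acaa2 and Ucp3) are not independent repeats. Of the 15 alternatives run for each, Lipe lost its call against Acvr1b KO under 6, Acaa2 under 5, Cd36 under 4 and Plin5 under 1. Against Tgfbr1 KO Acadl lost it under 8 and Acaa2 under 5, while Lpl, Acadm and Ucp3 kept theirs in both comparisons. Lpl had 619.5 to 776 CPM in Acvr1b KO and 692 to 841 CPM in Tgfbr1 KO gastrocnemius, both above the highest double KO library. Its fold changes were -0.53 ± 0.10, adjusted p = 0.00192 against Acvr1b KO and -0.73 ± 0.10, adjusted p = 0.000207 against Tgfbr1 KO. Ucp3 had 499.6 to 807 CPM in Acvr1b KO and 454 to 689 CPM in Tgfbr1 KO gastrocnemius (-0.93 and -0.75), again with no overlap. Plin5, at 27.3 to 42.6 CPM in Acvr1b KO gastrocnemius, passed against that genotype (-1.12 ± 0.30, adjusted p = 0.015) but missed the threshold against Tgfbr1 KO, where it had 20.5 to 38 CPM (-0.91 ± 0.30, adjusted p = 0.0538).

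Whether the double KO effect exceeded the sum of the single effects was tested as the departure from additivity (double KO minus Acvr1b KO minus Tgfbr1 KO plus control). By edgeR 0 of 37 members passed, against 2.14% of all genes, and 7 were at an unadjusted p under 0.05. DESeq2 called 3 (Cd36, Lpl and Acadm), and 4 passed without the 3 libraries in doubt (Lpl, Acadl, Acadm and Etfdh). The 2.14% is that of the main fit. Shares of all genes under these alternatives are not given here, so the 3 and 4 cannot be set against it. The departure was below 0 for 33 of 37 members, with a median of -0.23 against 0.01 over all genes. It was -0.53 ± 0.15, adjusted p = 0.0732 for Lpl, -0.78 ± 0.24, adjusted p = 0.115 for Ucp3 and -0.44 ± 0.14, adjusted p = 0.109 for Cd36.

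In soleus the double KO moved no member past the threshold, and 0 of 37 cannot be set apart from the low share of all genes that passed. Against control, 0 of 37 passed by edgeR, against 0.722% of all 18143 genes, with 7 at an unadjusted p under 0.05; DESeq2 called 1 and leaving out the 2 soleus libraries in doubt (double KO 1 and Acvr1b KO 1) gave 1. The median fold change was -0.23, against 0.04 over all genes, and -0.11 without double KO 1. Fold changes were negative for 31 of 37 members, and for all 11 that fell in gastrocnemius. Libraries of the groups did not overlap for 4 members (7.82% of all genes). Ucp2 had 20.3, 22.3, 16.5 and 19.4 CPM in the double KO soleus, against 29.4, 33, 36.6 and 41 CPM in control soleus. The groups did not overlap (-0.83 ± 0.20, adjusted p = 0.08), and Ucp2 was the gene that passed without the libraries in doubt (-0.86, adjusted p = 0.0162). The fold changes of Ucp3 (-0.90 ± 0.29, adjusted p = 0.207) and Plin5 (-1.01 ± 0.36, adjusted p = 0.251) resembled those in gastrocnemius in size but had wider errors. Lpl had 768, 2181, 2100 and 1973 CPM in the double KO soleus and 2564, 2451, 2527 and 2440 CPM in control soleus. All 4 double KO libraries were below the controls, and double KO 1 was far below the other 3 (-0.51 ± 0.22, adjusted p = 0.363).

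The soleus of double KO mouse 1 set many of the extreme values. Plin2 had 503, 31.8, 36.8 and 35.8 CPM in the double KO soleus, against 34.4, 33.2, 26.4 and 42.3 CPM in control soleus, so the fold change of 2.20 ± 0.72, adjusted p = 0.206 rests on 1 library. In the same library Fabp3 had 215 CPM, against 880 to 999 in the other double KO soleus libraries, and Hadh had 124 CPM against 299 to 329. The gastrocnemius of this mouse was also the highest for Plin2, at 71.7 CPM, and Angptl4, at 10.7 CPM. In that soleus the summed level of 12 myofibre markers was 37900 CPM, against 56450 to 64120 CPM in the other 3 double KO libraries. The 12 endothelial markers summed to 448 CPM, against 665 to 724 CPM, and the macrophage markers to 138 CPM, against 61.6 to 93.7 CPM. The part of these differences in the gene values was not tested.

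The muscles themselves differed in most of these genes. Both muscles came from the same mice, and the main fit did not include the mouse. In control mice 31 of 37 members were higher in soleus than in gastrocnemius and 1 was lower, 86.5% in all, against 40.4% of 18726 genes (20.5% higher, 20% lower). The median log2 fold change was 0.99, against 0.07 over all genes. All 12 β-oxidation genes were higher, by 0.60 (Acads) to 1.26 (Acaa2). Libraries of the muscles did not overlap for 28 members (38.4% of all genes). Dgat2 differed most, at 255, 276, 193 and 311 CPM in control soleus, against 32.2, 80.1, 61.2 and 84.7 CPM in control gastrocnemius (2.00 ± 0.23, adjusted p = 4.31e-08). Lpl was at 1.67 ± 0.18, Fabp3 at 1.62 ± 0.28 and Cd36 at 1.48 ± 0.16. The exception was Ucp3, at 308, 385, 156 and 418 CPM in control soleus and 610.2, 754, 437 and 734 CPM in control gastrocnemius, lower without overlap (-1.0 ± 0.25, adjusted p = 0.00224). The calls for Cpt1b (0.69, adjusted p = 0.0107) and Angptl4 (1.36, adjusted p = 0.015) were lost without gastrocnemius control 1 (adjusted p = 0.0512 for Cpt1b and 0.0718 for Angptl4) and without soleus control 4. That for Angptl4 was also lost with no filter on low counts. Slc27a4, Cpt1a, Acacb, Plin2 and Dgat1 did not pass. Cpt1a (0.07, 95% interval -0.26 to 0.40) and Acacb (-0.10, -0.36 to 0.17) had intervals on both sides of 0.

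**Figure D4:**
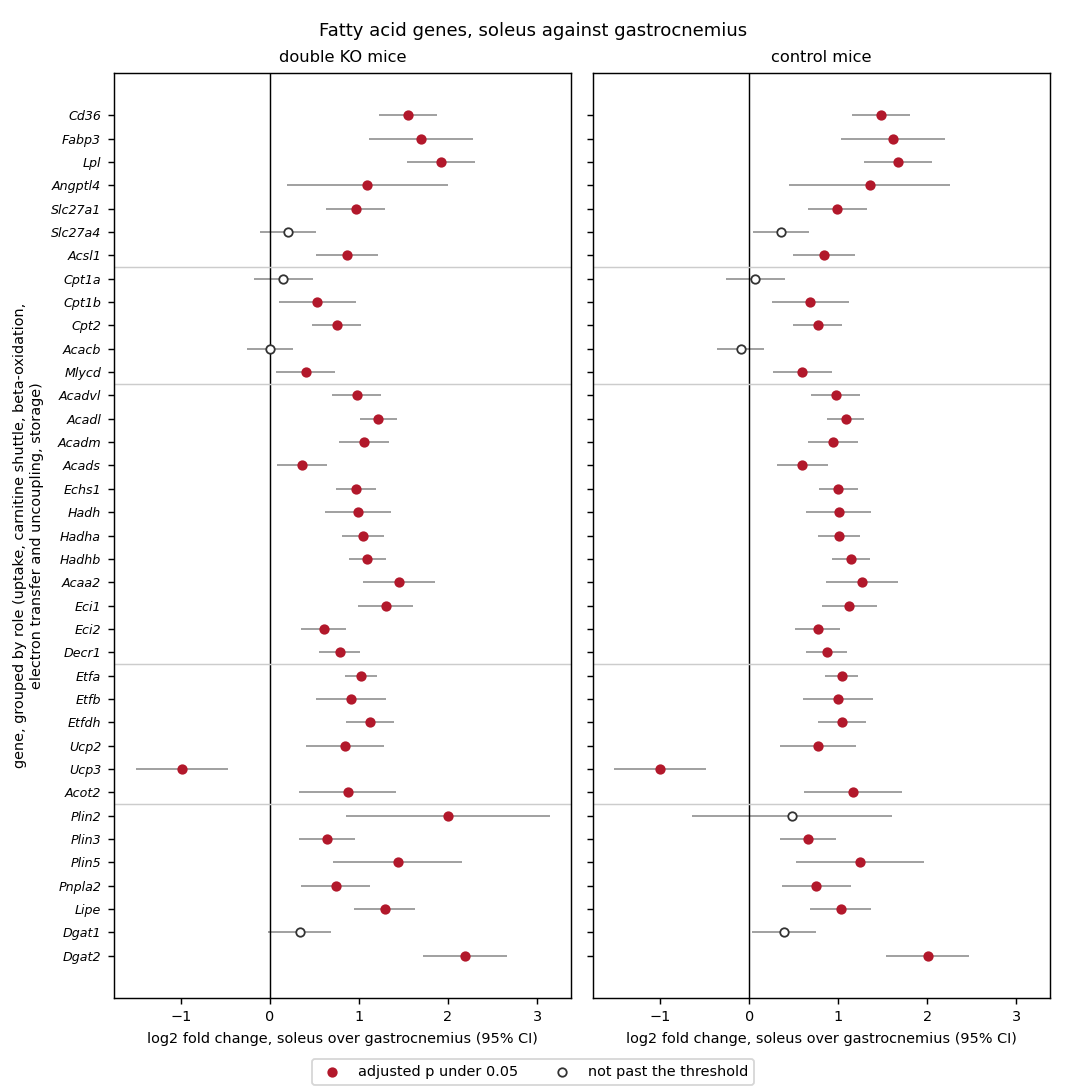
Points are log2 fold changes of soleus over gastrocnemius with 95% intervals, in double KO mice on the left and control mice on the right; filled points passed the adjusted threshold of 0.05. Nearly all filled points lie right of 0 in both panels and Ucp3 alone lies left of it, at -0.99 in double KO mice and -1.0 in control mice.

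In double KO mice the same contrast gave 32 members higher in soleus and 1 lower (89.2%), against 39.7% of all genes (21.6% higher, 18.1% lower), with a median of 0.97 against 0.10 over all genes. DESeq2, RLE scaling and no filter on low counts each gave 28 higher and 1 lower, with shares of all genes not given here. The calls for Acads (0.36), Mlycd (0.40), Cpt1b (0.53) and Angptl4 (1.09) were lost under 7, 9, 8 and 9 of 15 alternatives. Plin2 was called (2.00 ± 0.56, adjusted p = 0.00551), but without the soleus of double KO mouse 1 its fold change was -0.17. The difference of the double KO effect between muscles, soleus minus gastrocnemius, passed for 0 of 37 members by edgeR, against 0.732% of all genes, with 0 at an unadjusted p under 0.05 and 0 by DESeq2. Its interval was -0.28 to 0.77 for Lpl, -0.72 to 0.74 for Ucp3 and -0.82 to 1.19 for Plin5. The double KO effect was therefore not shown to differ between the muscles. Against the single KOs, the double KO soleus had 0 of 37 members past the threshold by edgeR (0.127% of all genes against Acvr1b KO, 0.0496% against Tgfbr1 KO), with 8 and 11 at an unadjusted p under 0.05 and 0 by DESeq2 in each. Those percentages are for the adjusted threshold and are no measure for the 8 and 11. The departure from additivity in soleus also gave 0 by edgeR and by DESeq2 (0% of all genes), with 2 at an unadjusted p under 0.05.

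Of 31 regulators tested around PPAR and PGC-1, 10 fell and 3 rose in the double KO gastrocnemius, against 9.59% of all genes lower and 11.4% higher. Ppara, the nuclear receptor that drives fatty acid oxidation genes, had 7.1, 7.58, 7.54 and 12.4 CPM in the double KO gastrocnemius and 11.3, 25.3, 23 and 26.2 CPM in control gastrocnemius; control 1 lay within the double KO range (-1.29 ± 0.24, adjusted p = 0.00121). Ppargc1a, which encodes the coactivator PGC-1α, had 25.1, 27.3, 26.2 and 29.5 CPM in the double KO gastrocnemius and 81.1, 46, 54.7 and 46.4 CPM in control gastrocnemius, without overlap (-1.07 ± 0.18, adjusted p = 0.000575). Foxo1 (-1.26 ± 0.22, adjusted p = 0.000741) and Klf15 (-0.76 ± 0.13, adjusted p = 0.000568), transcription factors of the fasting response, and Nrip1 (-1.36 ± 0.18, adjusted p = 4.35e-05), a corepressor of oxidative genes, fell too. Pdk4, a kinase that spares glucose by shutting pyruvate dehydrogenase, did not pass (-0.81 ± 0.29, adjusted p = 0.0552). Double KO 1 had 2105 CPM and the other 3 double KO libraries 744 to 935 CPM, against 1588 to 2343 CPM in control gastrocnemius. The 3 that rose were subunits of the energy sensor AMPK, named after their values were seen: Prkag3 (0.52 ± 0.11, adjusted p = 0.00258), Prkaa1 (0.44 ± 0.15, adjusted p = 0.0401) and Prkab2 (0.32 ± 0.084, adjusted p = 0.0119). In soleus 3 of the 31 fell and 1 rose, Prkab2 (0.90 ± 0.17, adjusted p = 0.0194), against 0.722% of all genes called. The falls were Ppara (-1.01 ± 0.21, adjusted p = 0.0404), Foxo1 (-1.0 ± 0.16, adjusted p = 0.00896) and Klf15 (-0.78 ± 0.12, adjusted p = 0.00535).

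The wider pathway was mixed in the double KO gastrocnemius, where 11.4% of all genes rose and 9.59% fell. Among 20 other droplet and triglyceride genes 6 fell and 3 rose. Plin4, an abundant coat protein of muscle droplets, had 728, 545, 549 and 707 CPM in the double KO gastrocnemius, against 1146, 1619, 1172 and 1534 CPM in control gastrocnemius (-1.10 ± 0.14, adjusted p = 5.47e-05). It fell in the double KO soleus as well (-0.89 ± 0.20, adjusted p = 0.0461), as did Gpat3, an acyltransferase of triglyceride synthesis (-1.19 ± 0.16, adjusted p = 8.51e-05 in gastrocnemius; -0.63 ± 0.14, adjusted p = 0.0481 in soleus). Cidec, a droplet fusion protein that is also on the adipocyte marker list, fell (-1.69 ± 0.52, adjusted p = 0.0297). Its relative Cidea, also on the brown adipocyte list, rose (1.61 ± 0.35, adjusted p = 0.0033). Of 19 peroxisomal genes 5 rose and 2 fell; Hacl1, an enzyme of peroxisomal α-oxidation, was at 1.20 ± 0.21, adjusted p = 0.000722. Of 16 other acyl-CoA genes 2 rose and 5 fell. Crot, the carnitine transferase of peroxisomes, rose (0.66 ± 0.091, adjusted p = 8.63e-05), and the acetyl-CoA synthetase Acss1 fell (-1.11 ± 0.18, adjusted p = 0.000444). Of 10 other uptake genes 1 rose and 2 fell, of 17 other mitochondrial oxidation genes 0 rose and 2 fell, and of 16 synthesis genes 3 rose and 4 fell. The 2 of 17 mitochondrial oxidation genes are below the 20.9% of all genes called in either direction.

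Markers of fibre type and of other cells are given beside the 9.59% of all genes that fell and the 11.4% that rose in the double KO gastrocnemius. Of 11 slow-fibre genes 9 fell and 0 rose in the double KO gastrocnemius, and Myh7 was at 318 to 496 CPM there against 634 to 1037 CPM in control gastrocnemius (-0.94 ± 0.15, adjusted p = 0.00031). Of 11 fast-fibre genes 3 fell and 1 rose. The summed level of 12 endothelial markers was 365 to 390 CPM in the double KO gastrocnemius and 416 to 501 CPM in control gastrocnemius; 4 of 12 fell. Of 9 adipocyte markers tested 3 fell and 1 rose, and the 10 on the list summed to 80.3 to 120.1 CPM in the double KO gastrocnemius, against 101 to 154 CPM in control gastrocnemius. Adipoq, which defines adipocytes, was at 0.294 to 2.39 CPM in the double KO gastrocnemius and 1.81 to 3.62 CPM in control gastrocnemius. Ucp1, which defines brown fat, was at 0 in both. Macrophage markers rose for 5 of 9, with sums of 70.5 to 111.9 CPM in the double KO gastrocnemius and 55.3 to 67.3 CPM in control gastrocnemius. Lpl and Cd36 are known in fibres and also in some of these other cells, and the part of cell or fibre make-up in the falls was not tested.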

How the data were processed

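The authors deposited 1 table of estimated counts per gene: per the file header, featureCounts assigned reverse-stranded reads to Ensembl 102 genes and shared reads with several alignments as fractions. Per the submitters' processing notes, reads had been trimmed with cutadapt, aligned with HISAT2 to GRCm38.p6 and counted with featureCounts 2.0.1. Library totals of 16535498 to 54456977 limit precision for weakly expressed genes. The expected counts were rounded and tested with edgeR 4.0.16 in R 4.3.3: TMM scaling, a filter on low counts by filterByExpr and robust quasi-likelihood fits with Benjamini-Hochberg adjustment over all genes (threshold 0.05). Each muscle was fitted on its 16 libraries, and all 32 entered comparisons between muscles. Alternatives were DESeq2 1.42.0, RLE scaling, no filter, leaving out mitochondrial genes, fits of only the groups compared, blocks by replicate number or mouse, and leaving out single or doubted libraries. Libraries in doubt were chosen after seeing the data.

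The members and lists were chosen with earlier results of these data known. All 37 are named; of each other list, up to 3 genes past the threshold with the largest change in a muscle are, besides a few regulators and myosins. Libraries of both muscles share mice by animal number in the labels; correlations of deviations between muscles of a mouse were 0.034 to 0.579, over 0.1 in 11 of 16 mice. The mice of a group are separate animals.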

Additional observations from a re-analysis of the deposited data

Results flagged for a closer look

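In 21 of 296 groups of 4 libraries (7.09%), 1 library lay far from the other 3 for a fatty acid gene, as judged by Dixon's gap test; chance alone flags about 1 in 20 groups. Of the 21 values, 11 came from double KO mouse 1, 9 of them from its soleus. That soleus also lay at the end of the leading principal component of its muscle. The rule was run on the members only, so no share of all genes is given. The groups reuse the same libraries, so flags within a library are not separate events.

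In the soleus of that mouse 7 of these genes were low and 2 were high. Fabp3 had 214.6 CPM, against 879.9 to 999.2 CPM in the other double KO soleus libraries, and Lpl had 768 CPM, against 1973 to 2181 CPM. Acadm had 282.2 CPM (others 530.2 to 563.5), Hadh 123.9 CPM (299.1 to 328.9) and Eci1 87.6 CPM (135.8 to 141.5). Etfa had 234.9 CPM (others 305.7 to 314.2) and Etfdh 195.8 CPM (303.6 to 320.2). The high ones were Plin2 and Angptl4, at 503 CPM (others 31.81 to 36.82) and 19.53 CPM (others 6.145 to 8.229). Both were high in the gastrocnemius of the same mouse too, where Plin2 had 71.74 CPM (others 22.98 to 28.91) and Angptl4 10.69 CPM (others 1.91 to 3.381).

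In the gastrocnemius of Tgfbr1 KO mouse 1, Acadm had 268.7 CPM (others 326.9 to 332), Hadh 121.3 CPM (163.2 to 165.8) and Etfdh 132.8 CPM (177 to 183.2). In gastrocnemius Decr1 was 117 CPM in double KO 4 (others 106.4 to 108), Echs1 was 45.76 CPM in control 1 (others 72 to 76.4) and Plin2 was 27.75 CPM in control 4 (others 23.07 to 23.32). In soleus Hadhb was 397.3 CPM in Acvr1b KO 1 (others 511.8 to 517.5) and Hadha was 811.6 CPM in Tgfbr1 KO 1 (others 962.6 to 990.7). Cd36 was 456.6 CPM in soleus control 3 (others 607.9 to 637.5) and Acads was 91.3 CPM in soleus control 4 (others 75.17 to 76.04).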

How the results depend on the processing

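The number of members past the threshold moved most when libraries were left out. For the double KO against control in gastrocnemius (12, with 20.9% of all genes called), leaving out 1 library gave 8 to 19. The 8 came without control 4 (17.8% of all genes) and the 19 without control 1 (21.8%). Leaving out the 3 in doubt gave 22 (26.2%). Against Acvr1b KO (7, with 16.3% of all genes called) DESeq2 gave 11 (18.2% of all genes) and fitting only the groups compared 12 (21.4%). Leaving out the libraries in doubt gave 17 (24.4%) and leaving out 1 library 4 to 9 (11.6 to 16.6%). The share of all genes thus moved with these counts, which are not shifts of the members alone. Against Tgfbr1 KO (7) leaving out the libraries in doubt gave 19 and leaving out 1 library 5 to 12. Departure from additivity in gastrocnemius (0) gave 3 with DESeq2, 4 without the libraries in doubt and 0 to 2 without 1 library. The double KO soleus (0) gave 1 with DESeq2 and 1 without the libraries in doubt. Plin2 between muscles of double KO mice was -0.165 to 2.505 without 1 library, the lowest without the soleus of double KO mouse 1. Where no share of all genes stands beside a count, the count cannot be set against all genes. The cause of these shifts was not tested.

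Replicate numbers are only names within a muscle. With the replicate block in gastrocnemius, 11 members passed against control (20.7% of all genes). There were 9 against Acvr1b KO (16.7%) and 8 against Tgfbr1 KO (12.5%). The paired fit with the mouse as block gave 33 in double KO mice (29 with DESeq2, RLE scaling or no filter). It gave 33 in control mice and 0 for the difference between muscles. Shares of all genes under these settings between muscles are not given here. The main fit called 39.7% of all genes in double KO mice and 40.4% in control mice. No single KO comparison called a member under any alternative run. In the main fits these comparisons called only 0.022 to 0.171% of all genes. Another scaling moved the median of all genes by at most 0.034. Members at a few CPM, such as Angptl4 and Cpt1b, are limited by depth, and reads shared between genes leave Cpt1b and Etfb uncertain.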
